A study of Trichoderma reesei with 17 samples.

Results

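The genes described here are 98 Trichoderma reesei genes of DNA replication, the cell cycle and chromatin, followed across 17 RNA-seq libraries of 2 strains and 3 carbon sources. They were chosen by the words of the deposited protein descriptions (DNA replication, MCM, DNA polymerase, cyclin, histone, kinetochore, cohesin, condensin, anaphase, cell division) and by a minimum of 10 raw counts in 2 or more libraries. The terms matched 103 descriptions. Of these, 4 that hold the word kinase and 1 gene with too few counts were left out. This left 98 of the 8506 genes tested and of 9129 in the count table. The rule uses no expression difference, although the gene group was chosen with earlier results of these data known. The words caught more than cell cycle genes: 24 of the 98 are described as "Cyclin-like F-box", a domain name shared by adaptors of ubiquitin ligases that are not cyclins, and 4 are transcription factors with a histone fold. The other members were 26 enzymes and chaperones that act on histones, 11 core and linker histones, 9 proteins named for cell division, 8 cyclins, 8 DNA replication proteins and 8 proteins of the kinetochore, cohesin and condensin.

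QM9414 is the parental strain, and Δxyr1 is a derived mutant without xyr1, the gene of the main activator of cellulases and xylanases. Mycelia grew on 1% cellulose (24, 48 and 72 h for QM9414, 8 and 24 h for Δxyr1), on 2% glucose (24 and 48 h) or with 1 mM sophorose (2, 4 and 6 h), a disaccharide that induces cellulases. RNA of the time points of a replicate was pooled. There were 3 biological replicates in each of 5 groups and 2 in QM9414 glucose. By the study's methods Δxyr1 was also pre-grown on glycerol before cellulose. The series design text places a glycerol pre-culture before sophorose instead. Strain, time and pre-culture cannot be told apart in cellulose, and the part of a pre-culture in sophorose was not tested. Carbon source, time and any pre-culture cannot be told apart in any comparison between sugars. Each mutant group comes from 1 deletion strain.

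A dividing cell copies its DNA once per cycle. Licensing factors load the MCM helicase onto origins, cyclins switch on the kinases that drive each step, newly made histones package the copied DNA, and cohesin, condensin and the kinetochore hold, fold and pull the chromosomes apart. In filamentous fungi nuclei divide inside growing hyphae. Transcripts of core histone genes are known in yeast to peak as DNA is copied. In bulk mycelium, a lower level can mean fewer dividing nuclei or less transcript in each, and these cannot be told apart.

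The libraries held 7014100 to 29056712 counts. The targeted gene was lower in the mutant on each carbon source, though reads remained: xyr1 had 9153 to 11010 raw counts in QM9414 cellulose against 103 to 139 in Δxyr1 cellulose, and 28685 to 45128 in QM9414 sophorose against 1214 to 1300 in Δxyr1 sophorose. In glucose the strains were closest, at 102 and 191 counts (9.21 and 10.0 CPM, counts scaled to a common library size) in QM9414 and 19, 46 and 74 (1.01 to 5.68 CPM) in Δxyr1. The mutant in sophorose, at 81.5 to 93.7 CPM, lay above the parent in glucose. In the QM9414 cellulose library of replicate 1, 16 genes had a median of 17.9 CPM, against 0.607 and 0.676 CPM in replicates 2 and 3. They were picked as high in all glucose libraries and nearly silent in replicates 2 and 3, so those low medians were fixed by the choice. No like search was made for other libraries. Over all genes (log2 CPM), replicate 1 correlated at 0.981 and 0.980 with replicates 2 and 3. The lowest correlation within a group was 0.964, between Δxyr1 sophorose replicates 1 and 3. The conidiospore surface protein gene cmp1, a marker of spores, stood at 1334 to 4124 CPM in the 6 cellulose libraries and at 36.2 to 81.7 CPM in the others. It belongs to a list of 14 genes with hydrophobin or spore descriptions, and the rest of that list did not follow it. Without cmp1 the list summed to 962 to 1234 CPM in cellulose, 1101 to 1149 in sophorose and 809 to 966 in glucose. TMM scaling factors ran from 0.528 in Δxyr1 sophorose replicate 3 to 1.31. The part of these differences in the results below was not tested, and values without single libraries are given where they matter.

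Calls needed an adjusted p no higher than 0.05 (edgeR quasi-likelihood test, Benjamini-Hochberg over all 8506 genes) and an absolute log2 fold change of 1 or more. With TMM factors a smaller share of these genes than of all genes was called in each pairwise comparison. The strain effect (Δxyr1 against QM9414) called 9 of the 98 in cellulose (8 higher, 1 lower), where 18.6% of all genes were called (8.29% higher, 10.3% lower). In sophorose it called 10 (8 higher, 2 lower) against 17.2% of all genes (10.8% higher, 6.47% lower), and in glucose 1 (higher) against 2.60% (1.88% higher, 0.717% lower). In QM9414, cellulose against glucose called 13 (11 higher, 2 lower) against 32.8% of all genes (19.2% higher, 13.6% lower). Sophorose against glucose called 16 (15 higher, 1 lower) against 38.8% (19.6% higher, 19.2% lower), and sophorose against cellulose 5 (4 higher, 1 lower) against 17.4% (7.17% higher, 10.2% lower). In Δxyr1, cellulose against glucose called 24 (20 higher, 4 lower) against 44.2% of all genes (23.0% higher, 21.2% lower). Sophorose against glucose called 20 there (16 higher, 4 lower) against 36.0% (19.4% higher, 16.6% lower), and sophorose against cellulose 17 (9 higher, 8 lower) against 25.3% (13.5% higher, 11.8% lower). In the 9 pairwise comparisons 54 members were called in none and 44 in at least 1, of which 17 were F-box genes and 27 belonged to the other 74; of all genes 67.3% were called in at least 1. Comparisons within a strain share libraries, so their counts are not independent of each other.

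**Figure D1:**
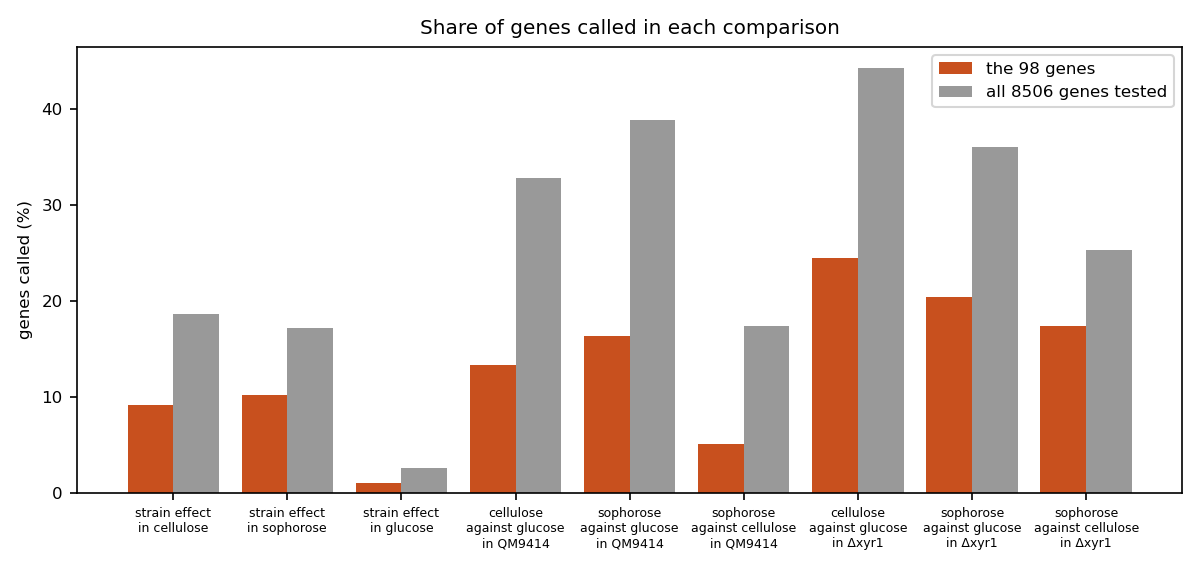
Share of genes called in each of the 9 pairwise comparisons (percent, bars from 0, TMM factors), for the 98 genes and for all 8506 genes tested. The 98 genes stand below all genes in each comparison, with 24 of 98 called at the most, in cellulose against glucose in Δxyr1.

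These splits rest on the scaling. With library totals in place of TMM factors, the median of all genes moved to -0.36 for the strain effect in sophorose, -0.60 in glucose, 0.84 for cellulose against glucose in Δxyr1, 0.36 for sophorose against glucose and -0.44 for sophorose against cellulose there. The members called then split into 2 higher and 13 lower for the strain effect in sophorose, 0 and 12 in glucose, 52 and 0 for cellulose against glucose in Δxyr1, 39 and 1 for sophorose against glucose, and 2 and 18 for sophorose against cellulose. Of all genes 21.6%, 12.2%, 54.5%, 38.0% and 30.8% were called in these comparisons on that scale. The members' share was then not below that of all genes for the strain effect in glucose (12.2%) or for sophorose against glucose in Δxyr1 (40.8%). Changes below are relative to the TMM scale, on which the medians of all genes lay between -0.05 and 0.05 in the pairwise comparisons.

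The clearest group pattern was in the core histones. Of the 11 histone genes, 5 rose in Δxyr1 relative to QM9414 in sophorose and none fell, with a median log2 fold change of 0.87 against 0.03 for all genes; 10.8% of all genes were called higher. DESeq2 called 4 of the 11. Under the adjusted p alone 7 rose and 1 fell, where 25.1% and 20.8% of all genes did. In cellulose edgeR called none of the 11 (4 had an unadjusted p under 0.05, and DESeq2 called 1), and their median was -0.23. Per kilobase of gene, mean levels over all libraries were highest among the 98 in hh3 (1301 CPM per kb), hh4.1 (989), the linker histone gene ID 34402 (963), hh2b (803), hh2a (784) and hh4.2 (308).

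The gene hh3 (ID 124210) encodes histone H3, which pairs with H4 at the heart of the nucleosome. Its level was 1302, 1072 and 1352 CPM in QM9414 cellulose, 941, 960 and 856 in QM9414 sophorose and 721 and 797 in QM9414 glucose. In Δxyr1 it was 1026, 959 and 948 CPM in cellulose, 1364, 1737 and 1726 in sophorose and 962, 965 and 1073 in glucose. All 3 mutant sophorose libraries lay above every other library. The strain effect in sophorose was 0.81 ± 0.16 (log2 fold change ± SE, n = 3 and 3, adjusted p = 0.00105), below the fold threshold, and in cellulose it was -0.35 ± 0.16 (adjusted p = 0.103).

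A pair of genes is described as H4 variants. For hh4.1 (ID 82510) the sophorose libraries gave 665, 706 and 665 CPM in QM9414 and 1481, 2068 and 1225 CPM in Δxyr1, a log2 fold change of 1.23 ± 0.26 (adjusted p = 0.00171). For hh4.2 (ID 80167) they gave 158, 177 and 177 CPM in QM9414 and 509, 630 and 368 CPM in Δxyr1, or 1.56 ± 0.25 (adjusted p = 0.000177, 2.95-fold). The groups did not overlap for either gene. In cellulose neither passed, with log2 fold changes of -0.29 ± 0.26 for hh4.1 (adjusted p = 0.408) and 0.08 ± 0.24 for hh4.2 (adjusted p = 0.824).

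The genes hh2a and hh2b encode H2A and H2B, which form the dimers on the outside of the nucleosome. In sophorose hh2a (ID 121522) had 488, 545 and 466 CPM in QM9414 and 943, 1244 and 928 CPM in Δxyr1 (1.05 ± 0.19, adjusted p = 0.000521). In the same libraries hh2b (ID 121516) had 658, 728 and 638 CPM and 1198, 1541 and 1309 CPM (1.00 ± 0.17, adjusted p = 0.000301). This value is at the fold threshold itself, and hh2b fell just under it (0.98 to 1.00) with DESeq2, RLE factors, both other filters and the replicate block. The groups overlapped for neither gene. In cellulose hh2a was lower in the mutant (410, 490 and 395 CPM against 609, 556 and 678; -0.51 ± 0.19, adjusted p = 0.0452), and hh2b gave -0.43 ± 0.17 (adjusted p = 0.055).

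**Figure D2:**
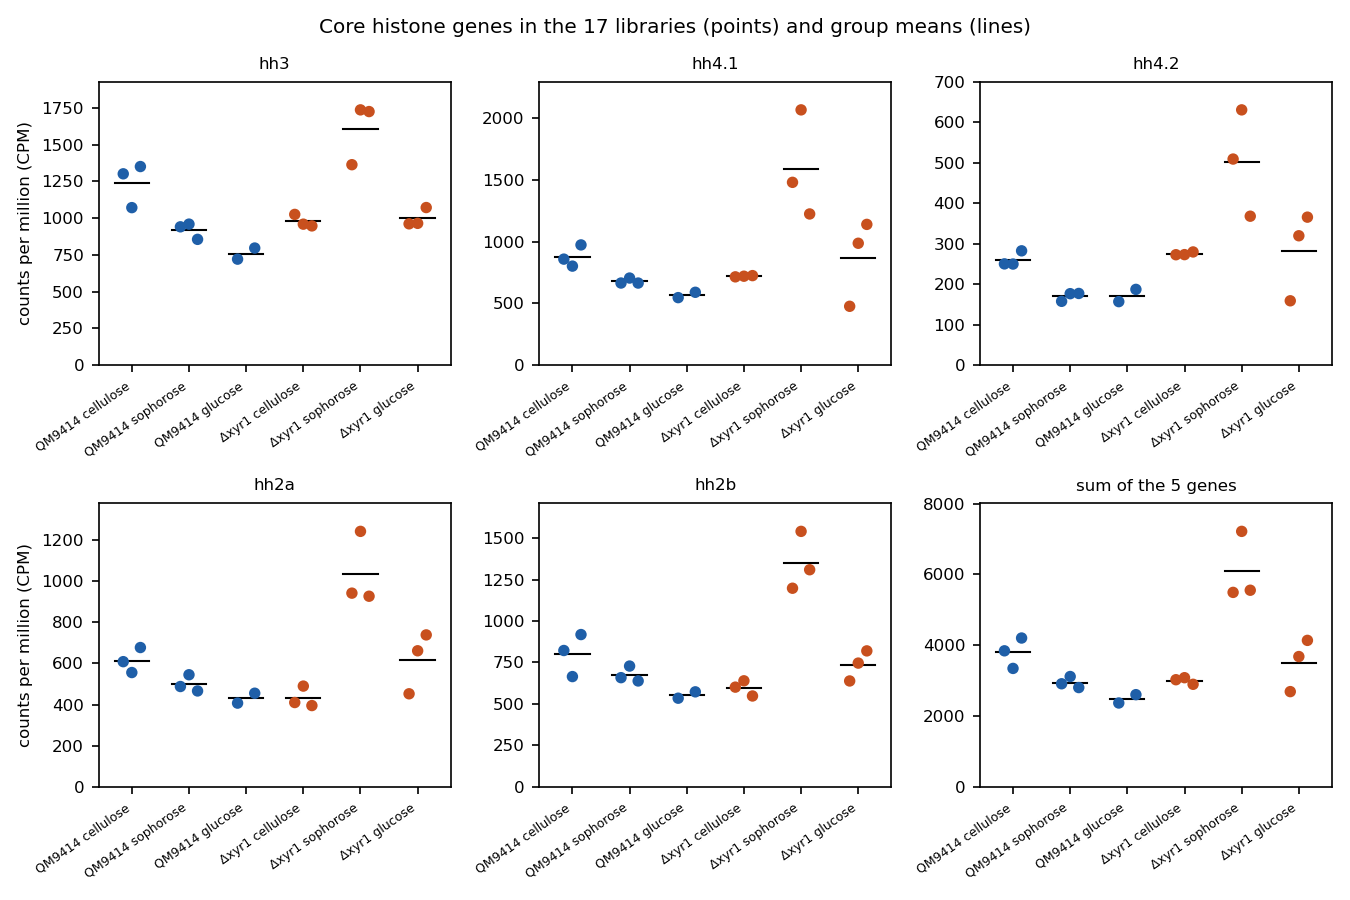
CPM of 5 core histone genes and of their sum in each of the 17 libraries, on linear axes from 0 (points, QM9414 in blue and Δxyr1 in orange; black lines, group means). The sum was 5494 to 7220 CPM in Δxyr1 sophorose and 2366 to 4204 CPM in the other groups.

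Summed over these 5 genes, the 3 Δxyr1 sophorose libraries had 5494, 7220 and 5555 CPM and the 3 QM9414 sophorose libraries 2910, 3115 and 2803. The remaining groups spanned 3344 to 4204 CPM in QM9414 cellulose, 2366 and 2602 in QM9414 glucose, 2895 to 3082 in Δxyr1 cellulose and 2688 to 4137 in Δxyr1 glucose. In glucose the 5 strain effects lay between 0.40 and 0.71 and none passed the adjusted p, as 6.65% of all genes did (over all 11 histone genes 6 had an unadjusted p under 0.05, and DESeq2 called 1). There, 2 of the 3 mutant libraries were high and replicate 1 was near the parental level in hh4.1, hh4.2 and hh2a. The strain effect in sophorose exceeded that in cellulose by 1.15 ± 0.23 for hh3 (adjusted p = 0.00093), 1.52 ± 0.37 for hh4.1 (0.00398), 1.48 ± 0.35 for hh4.2 (0.00283), 1.56 ± 0.27 for hh2a (0.000317) and 1.43 ± 0.24 for hh2b (0.000238). The comparison of these strain effects called 24 of the 98 genes (11 higher, 13 lower), where 28.6% of all genes were called and the median of all genes was 0.10. With library totals alone all 22 calls there were lower, with a median of all genes of -0.49.

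Leaving out Δxyr1 sophorose replicate 2, the library with the most histone transcript, kept the adjusted p of all 5 at 0.0121 or below but took hh4.1, hh2a and hh2b to 1.00, 0.90 and 0.89, just under the fold threshold. With library totals in place of TMM factors the sophorose strain effect stayed above 0 in each of the 5, and only hh4.2 remained called (1.24, adjusted p = 0.00761), while hh3 gave 0.38, hh4.1 0.89, hh2a 0.68 and hh2b 0.60. On that scale none of the 5 passed in the comparison of strain effects (0.53 to 0.99, adjusted p 0.0825 to 0.31).

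Pairwise correlations of the 5 genes over the 17 libraries, which share group, depth and scaling factors, ran from 0.782 to 0.973, and over deviations from group means from 0.193 to 0.977, given here as a description. In RefSeq's gene order hh2b and hh2a are neighbours with 1924 bases between them, and hh3 and hh4.1 with 1629 bases between them. The 2 H4 genes and any other near-identical copies share sequence, and since only uniquely aligned reads were kept, their separate levels are uncertain.

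The other histone genes were lower and did not follow one course. A second H3 gene (ID 57870) had 11.8, 14.4 and 12.7 CPM in QM9414 sophorose and 26.1, 25.6 and 19.4 in Δxyr1 sophorose (0.87 ± 0.16, adjusted p = 0.000508), and its strain effects differed between the inducers by 1.10 ± 0.22. A putative H4 (ID 55201) was higher in the mutant in sophorose (16.2, 23.4 and 11 CPM against 6.91, 7.54 and 8.26; 1.15 ± 0.24) and stood at 12.3, 11.7 and 11.2 against 6.26, 6.00 and 5.41 CPM in cellulose (0.99 ± 0.24, adjusted p = 0.00415). A gene described as histone H4 (ID 1857) has a model of 8560 bases, far longer than the coding sequence of a core histone. It had 17.9 to 69.3 CPM and was called in no comparison. A further H2A gene (ID 124052), at 55.9 to 96.7 CPM, was likewise not called.

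Linker histones close the nucleosome where DNA enters and leaves. The H1/H5 gene (ID 34402), whose model spans only 165 bases, had 185, 192 and 221 CPM in QM9414 cellulose, 196, 219 and 227 in QM9414 sophorose and 91.3 and 79.3 in QM9414 glucose. It was thus higher on both inducers than in glucose (1.22 ± 0.17 and 1.33 ± 0.17, adjusted p = 2.02e-05 and 6.89e-06). In Δxyr1 the same contrasts were 0.67 and 0.62, under the fold threshold. A second H5-like gene (ID 109071), at 0.937 to 6.22 CPM, went the other way and was lower than in glucose in Δxyr1 cellulose (-1.27 ± 0.37, groups overlapping) and Δxyr1 sophorose (-1.76 ± 0.37).

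No replication protein was called. These are 7 genes described as MCM, the subunits of the replicative helicase, and Cdc6, which loads that helicase onto origins, and neither edgeR nor DESeq2 called any of them in any comparison. By edgeR, 67.3% of all genes were called in at least 1 of the 9 pairwise comparisons. In cellulose all 8 lay below 0 for the strain effect, from -0.31 to -0.74, and 5 passed the adjusted p alone (6 an unadjusted p under 0.05), where 21.1% of all genes passed it in that direction. With library totals alone none of the 5 passed, at -0.16 to -0.54. In sophorose 7 of 8 lay below 0 and 1 passed (20.8% of all genes), and in glucose 5 of 8 lay below 0 and none passed (1 had an unadjusted p under 0.05). Pairwise correlations among the MCM genes ran from 0.225 to 0.932 (median 0.614, 17 libraries).

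The longer gene described as mcm7 (ID 3212) had 90.1, 92.5 and 95.7 CPM in QM9414 cellulose and 54.7, 63.0 and 49.0 in Δxyr1 cellulose (-0.74 ± 0.15, adjusted p = 0.00099). For mcm4 (ID 73646) the values were 133, 141 and 134 against 88.7, 95.8 and 84.2 CPM (-0.61 ± 0.17, adjusted p = 0.00866). For mcm3 (ID 112463) they were 102, 111 and 108 against 70.0, 74.1 and 66.8 CPM (-0.61 ± 0.19, adjusted p = 0.02). In these 3 genes every mutant library lay below every parental one, but mcm3 lost its adjusted p without QM9414 replicate 2 or Δxyr1 replicate 1 or 3 of cellulose. Both genes described as mcm2 gave -0.35 ± 0.10 (ID 5899, adjusted p = 0.0124) and -0.37 ± 0.14 (ID 63454, adjusted p = 0.0431, lost without any 1 of the cellulose libraries but Δxyr1 replicate 1). The rest were mcm6 (ID 75063, -0.34, adjusted p = 0.122), Cdc6 (ID 56789, -0.31, adjusted p = 0.273) and a short model of 385 bases also described as mcm7 (ID 105676, -0.74, adjusted p = 0.0664), which lies 291 bases from ID 3212 in RefSeq's order. In QM9414, mcm4 was higher on both inducers than in glucose (75.9 and 73.3 CPM), by 0.87 in each case, under the fold threshold.

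**Figure D3:**
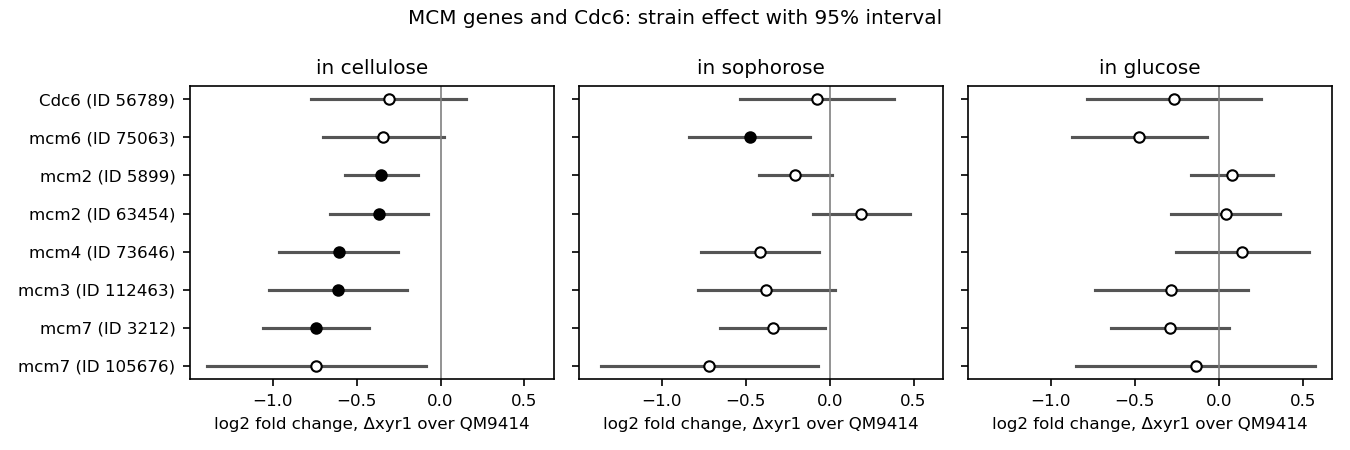
Strain effect (log2 fold change, Δxyr1 over QM9414) of the 7 MCM genes and Cdc6 in cellulose, sophorose and glucose, with 95% intervals; filled points passed the adjusted p alone. In cellulose all 8 points lie below 0, between -0.31 and -0.74, and 5 are filled.

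Among the 8 cyclins, which bind and activate cyclin-dependent kinases, 2 were called in any pairwise comparison, where 67.3% of all genes were. A gene described only as cyclin (ID 52520) followed the carbon source. It had 297, 293 and 384 CPM in QM9414 cellulose, 232, 200 and 187 in QM9414 sophorose and 25.9 and 21.5 in QM9414 glucose. In Δxyr1 it had 534, 598 and 441 CPM in cellulose, 117, 119 and 142 in sophorose and 20.6, 12.7 and 8.83 in glucose. Relative to glucose the log2 fold change was 3.78 ± 0.31 in cellulose and 3.12 ± 0.30 in sophorose in QM9414, and 5.21 ± 0.28 and 3.15 ± 0.25 in Δxyr1 (adjusted p = 2.63e-07 or lower in each). The strain effect changed sign between inducers, from 0.69 ± 0.23 in cellulose to -0.72 in sophorose, a difference of -1.41 ± 0.33 (adjusted p = 0.00271). The single effects are weak: that in cellulose lost its adjusted p without replicate 1 or 2 of either strain (0.59 to 0.89 over all alternatives), and that in sophorose without replicate 1 of either strain or replicate 2 of Δxyr1 (-1.15 to -0.62).

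A C-type cyclin (ID 5196), of the family that partners kinases of the transcription machinery, stood out in 1 group. It had 66.6, 80.0 and 57.4 CPM in Δxyr1 cellulose and 7.95 to 19.3 CPM in the 14 libraries of the other groups. The strain effect in cellulose was 1.98 ± 0.15 (adjusted p = 5.5e-08, 3.95-fold), and in sophorose it was -0.50 (under the fold threshold), a difference of -2.48 ± 0.21 (adjusted p = 5.08e-07). The other cyclins were not called: the B-type mitotic cyclin (ID 57421) had group means of 79.0 to 169 CPM, a further mitotic cyclin (ID 69437) 23.8 to 52.9, an N-terminal domain cyclin (ID 48486) 215 to 352, cyclin K (ID 54195) 80.7 to 154, and the last 2 (IDs 29568 and 55796) 8.94 to 22.1.

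Of the 9 cell division proteins 4 were called in at least 1 of the 4 comparisons with glucose, where 60.8% of all genes were, and none was called for strain by edgeR or DESeq2 (4, 5 and 4 had an unadjusted p under 0.05 in cellulose, sophorose and glucose). A GTP-binding protein of the septin kind (ID 55912), septins being filaments that mark division sites and septa, had 84.3, 87.2 and 91.1 CPM in QM9414 cellulose, 95.2, 87.9 and 102 in QM9414 sophorose and 41.2 and 35.1 in QM9414 glucose (1.20 ± 0.22 and 1.32 ± 0.22). In contrast, Cdc123 (ID 50947), known in yeast as an assembly factor of a translation initiation complex, was highest in glucose: 79.1 and 53.7 CPM in QM9414 glucose against 17.4 to 23.4 in cellulose and 12.8 to 14.6 in sophorose (-1.72 ± 0.19 and -2.27 ± 0.20). In Δxyr1 its contrasts were -1.04 ± 0.18 and -1.15 ± 0.18. Cdc37 (ID 21181), a chaperone partner of kinases, was lower in Δxyr1 cellulose than in Δxyr1 glucose (-1.07 ± 0.21), and Cdc14 (ID 110948) was higher there (1.05). Cdc2 (ID 70266), the central kinase of the cycle in fission yeast, was called nowhere, with group means of 30.5 to 47.8 CPM. The septin gene Cdc3 (ID 122199) had the highest mean of the 9, at 297 CPM over all libraries, and gave -0.63 for the strain effect in cellulose, past the adjusted p but not the fold.

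Of the 8 genes of chromosome structure, only the kinetochore proteins SPC25 (ID 78783) and spc24 (ID 108081), partners in the complex that grips microtubules, were called in any comparison. Of all genes 67.3% were called in at least 1 of the 9 pairwise comparisons. In Δxyr1 glucose SPC25 had 4.32, 6.40 and 5.14 CPM and spc24 5.17, 8.92 and 9.60. SPC25 was higher in Δxyr1 cellulose (12.0, 13.8 and 10.2 CPM; 1.20 ± 0.20) and in Δxyr1 sophorose (14.0, 12.6 and 8.93 CPM; 1.18 ± 0.20), and spc24 in Δxyr1 sophorose (20.6, 22.1 and 14.8 CPM; 1.29 ± 0.21). A cohesin gene (ID 102694) had 61.1, 61.5 and 58.7 CPM in Δxyr1 cellulose against 108, 115 and 130 in QM9414 cellulose (-0.96 ± 0.26, adjusted p = 0.00795), just under the fold threshold. The cohesin subunit SMC3 (ID 54541), both condensin regulators (IDs 122144 and 25703), condensin SMC2 (ID 2269) and NUF2 (ID 120337) were called nowhere.

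The enzymes that mark and unmark histones held the largest carbon source responses outside the F-box genes and the cyclin ID 52520. Of 26, the contrast with glucose called 6 higher in QM9414 cellulose (19.2% of all genes were called higher), 4 in QM9414 sophorose (19.6%), 6 in Δxyr1 cellulose (23.0%) and 4 in Δxyr1 sophorose (19.4%), with 1 lower, in the last. An acetyltransferase of the MYST family (ID 120339), whose members acetylate histone tails, had 14.3 and 16.3 CPM in QM9414 glucose and 17.5, 16.7 and 13.9 in Δxyr1 glucose. On the inducers it had 90.1, 112 and 124 CPM in QM9414 cellulose, 128, 111 and 156 in QM9414 sophorose, 276, 267 and 314 in Δxyr1 cellulose and 103, 84.8 and 122 in Δxyr1 sophorose. The fold over glucose was 7.09 and 8.61 in QM9414 and 17.8 and 6.44 in Δxyr1, and the mutant stood 1.40 ± 0.17 above the parent in cellulose (adjusted p = 9.11e-06) and at -0.35 in sophorose.

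A gene of the histone deacetylase superfamily (ID 65533) had 19.2 and 18.7 CPM in QM9414 glucose, 81.8, 93.0 and 87.8 in QM9414 cellulose and 54.9, 54.9 and 56.3 in QM9414 sophorose (2.21 ± 0.23 and 1.55 ± 0.23). In Δxyr1 the values were 27.4, 18.6 and 12.7 CPM in glucose, 64.9, 59.8 and 56.5 in cellulose and 43.2, 39.7 and 51.4 in sophorose (1.62 ± 0.20 and 1.18 ± 0.20). A gene of an acetyltransferase family and a gene of the deacetylase superfamily thus both rose on the inducers. Whether their products act on the same sites was not tested. The named deacetylase of silencing (ID 48386) went the other way in the mutant and was lower in sophorose than in glucose (-1.18 ± 0.14).

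Asf1 (ID 47838), the chaperone that hands new H3 and H4 to the nucleosome, had 141, 150 and 152 CPM in QM9414 cellulose, 109, 107 and 107 in sophorose and 73.6 and 59.7 in glucose. It was called in QM9414 cellulose against glucose only (1.15 ± 0.13) and gave -0.21 for the strain effect in sophorose, which did not pass (adjusted p = 0.135). The histone gene regulator Hir1 (ID 69960) was called nowhere, with group means of 82.8 to 120 CPM, and gave -0.54 in sophorose, past the adjusted p alone.

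Methyltransferases differed among themselves. An H3 methyltransferase (ID 111216) had 48.9, 48.2 and 54.7 CPM in Δxyr1 cellulose and 14.5 to 28.3 CPM in all other libraries (strain effect 1.14 ± 0.19, adjusted p = 0.000168). A SET-domain gene (ID 122500) ran opposite to it, with 10.2, 10.5 and 11.2 CPM in Δxyr1 cellulose and 35.1, 36.9 and 26.7 in Δxyr1 sophorose (1.63 ± 0.19 between them), against 16.4 to 17.8 and 18.9 to 21.0 in QM9414. A lysine methyltransferase (ID 56354) was likewise higher in Δxyr1 sophorose than in Δxyr1 cellulose (1.16 ± 0.16). NGG1 (ID 79414), in yeast a subunit of the SAGA acetyltransferase complex, was highest in Δxyr1 cellulose (105, 127 and 104 CPM) and lowest in Δxyr1 glucose (37.3, 42.8 and 38.4; 1.51 ± 0.12). The Paf400-like subunit (ID 77251), the most abundant gene of the group in raw CPM but with a model of 12165 bases, was called in QM9414 cellulose against glucose (1.35 ± 0.36).

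Both remaining enzymes that were low in glucose rest on few reads. A SAGA-type acetyltransferase (ID 110943) had 8 and 27 raw counts in QM9414 glucose and 88 to 126 in QM9414 sophorose (2.72 ± 0.36), and the mutant was lower than the parent in sophorose (-1.07 ± 0.27, adjusted p = 0.00487). A short SET-domain gene (ID 32755) had 4 and 11 raw counts in QM9414 glucose, 14 to 24 in QM9414 cellulose and 46 to 66 in QM9414 sophorose. It is the 1 member called for the strain effect in glucose, with 19, 20 and 27 counts in the mutant (1.71 ± 0.42, adjusted p = 0.0289), and it was also higher in the mutant in cellulose (1.72 ± 0.30). The call in glucose was lost in 6 of 13 alternatives, among them the omission of either parental glucose library. Of members called in no pairwise comparison, those with the highest mean over all libraries were hh3 (1104 CPM), the N-terminal domain cyclin ID 48486 (297), Cdc3 (297) and the histone enzymes or chaperones ID 51228 (259) and ID 79441 (236).

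**Figure D4:**
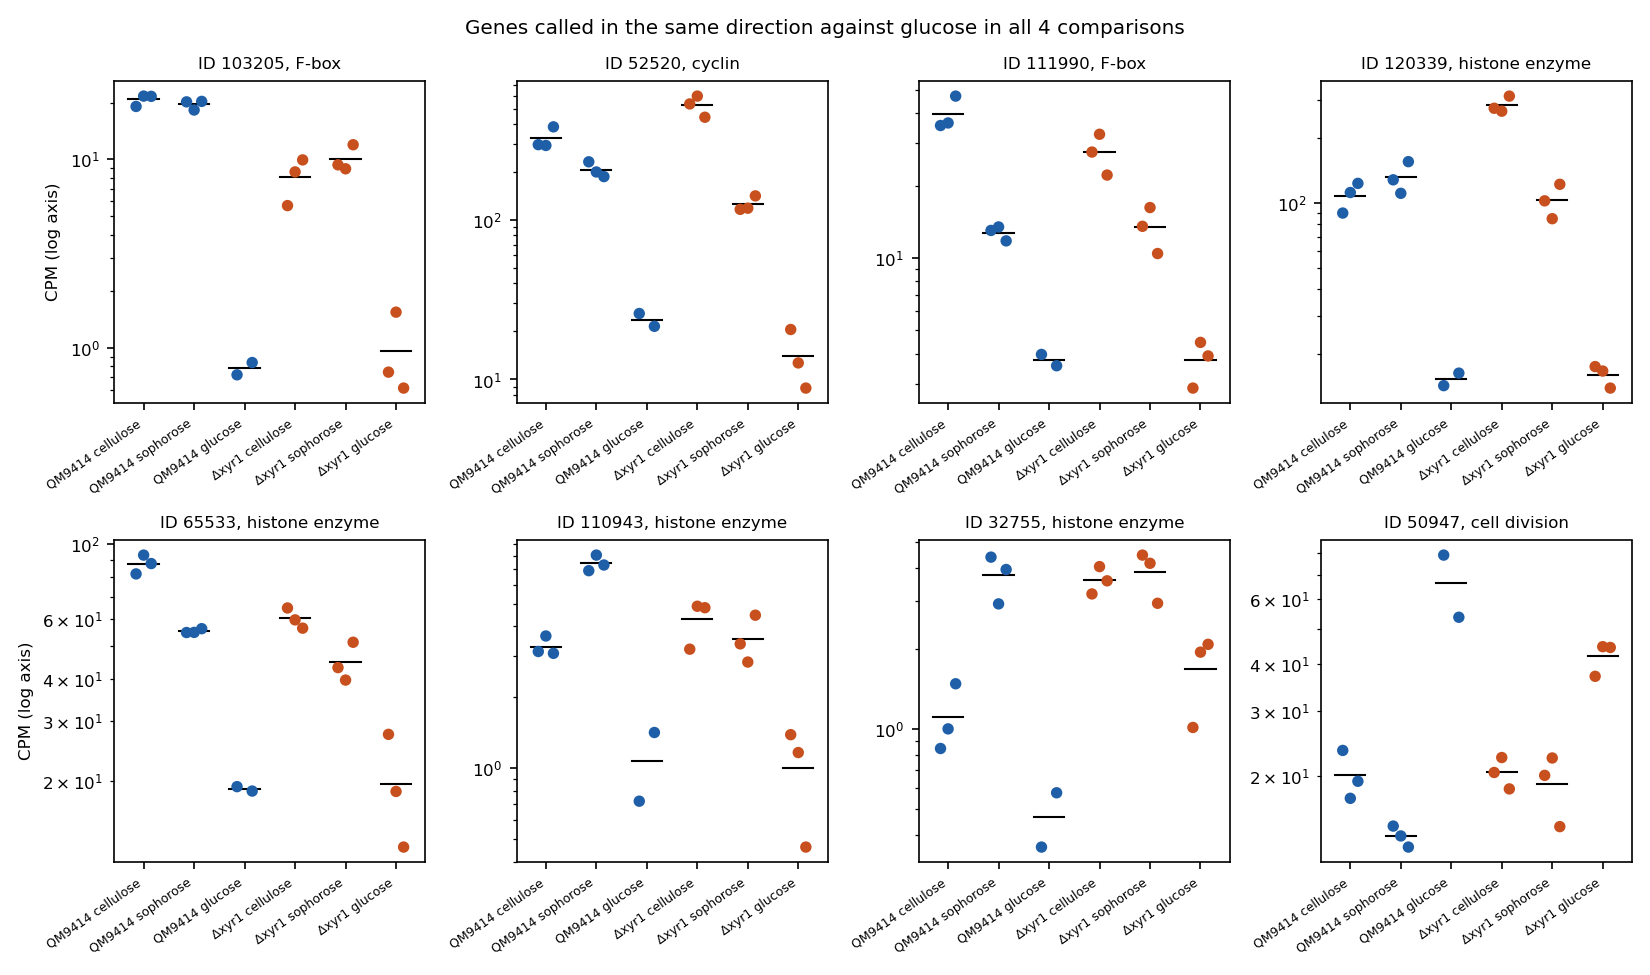
CPM (log axes) in the 17 libraries of 8 genes picked after their values were seen because each was called against glucose on both inducers in both strains (points, QM9414 in blue and Δxyr1 in orange; lines, group means). In 7 of them the glucose libraries are the lowest of their strain, and in Cdc123 (ID 50947) they are the higher ones, at 37.1 to 79.1 CPM; the 4 contrasts share the glucose libraries of each strain.

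F-box proteins choose the targets of ubiquitin ligases, among them cell cycle regulators, but the descriptions name no target for these 24. A pair of them was low in glucose. The first (ID 103205) had 0.722 and 0.839 CPM in QM9414 glucose and 0.746, 1.55 and 0.614 in Δxyr1 glucose, 8 to 16 raw counts each. On the inducers it had 18.3 to 21.6 CPM in QM9414 and 5.69 to 12.0 in Δxyr1. Its log2 fold change over glucose was 4.70 ± 0.33 in cellulose and 4.61 ± 0.33 in sophorose in QM9414, and it was the 1 member called lower in the mutant in cellulose (-1.35 ± 0.22, adjusted p = 0.000149). The second (ID 111990) had 35.6, 36.5 and 47.2 CPM in QM9414 cellulose, 13.0, 13.5 and 11.8 in sophorose and 3.97 and 3.56 in glucose, with a like order in Δxyr1.

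Other F-box genes differed by strain. ID 80685 was higher in the mutant on both inducers, with 10.1, 9.00 and 6.44 CPM against 2.14, 2.29 and 1.66 in cellulose (2.06 ± 0.26, adjusted p = 1.29e-05) and 16.5, 14.6 and 10.1 against 4.24, 3.96 and 3.83 in sophorose (1.77 ± 0.24, adjusted p = 4.45e-05). ID 119607 had 62.7, 72.5 and 74.9 CPM in Δxyr1 cellulose and 14.2 to 28.9 elsewhere (1.49 ± 0.14, adjusted p = 6.94e-07). ID 60887 had 192, 164 and 154 CPM in Δxyr1 sophorose and 48.6 to 86.4 elsewhere (1.20 ± 0.13, adjusted p = 7.24e-06). ID 121427 was lowest in QM9414 cellulose (9.24, 8.57 and 10.4 CPM) and highest in QM9414 sophorose (44.3, 52.9 and 51.2; 2.39 ± 0.29), with 61.3, 21.4 and 30.0 CPM in Δxyr1 cellulose. ID 122823 was called higher in the mutant in cellulose (1.02 ± 0.16), and ID 120912 (lower, -1.34 ± 0.39) and ID 103463 (higher, 1.28 ± 0.37) in sophorose, these last at 6 to 42 raw counts a library. By sugar, ID 53561 had 7.93, 9.58 and 8.20 CPM in QM9414 sophorose against 2.53 and 3.51 in glucose (1.48 ± 0.35), and ID 105466 had 11.9, 9.37 and 7.57 CPM in Δxyr1 sophorose against 4.37, 3.10 and 2.23 in glucose (1.55 ± 0.23).

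**Figure D5:**
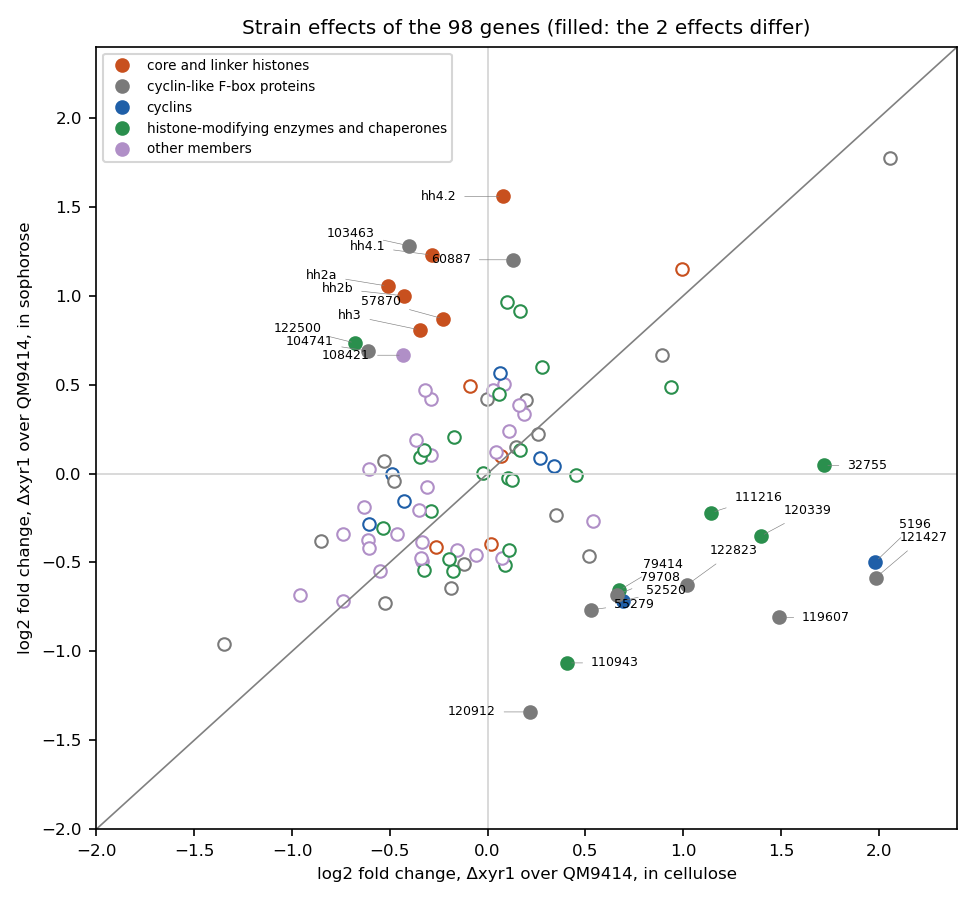
Strain effect of each of the 98 genes in cellulose (horizontal axis) and in sophorose (vertical axis), as log2 fold changes of Δxyr1 over QM9414; filled and named points are the 24 genes whose strain effects differed by the test, and the line marks equal effects. The 6 called histones sit above the line, with sophorose effects of 0.81 to 1.56 for the 5 main genes. They lie left of 0 in cellulose except hh4.2 (0.08). The C-type cyclin ID 5196, the MYST gene ID 120339 and several F-box genes sit at the lower right.

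The strain effects in both inducers use separate libraries, so they can be set against each other. Of the 24 genes called in that comparison, 11 were relatively higher in the mutant in sophorose, 6 of them histones (6 of 11 histone genes, where 16.8% of all genes were called in that direction). The 13 that were relatively higher in the mutant in cellulose comprised 6 F-box genes, 5 histone enzymes and 2 cyclins, where 11.8% of all genes were called. None of the replication, cell division or chromosome structure genes was called there by edgeR or DESeq2 (1, 3 and 0 of them had an unadjusted p under 0.05). The time points of the strains differ in cellulose (8 and 24 h for Δxyr1, up to 72 h for QM9414) and not in sophorose. Neither this nor the glycerol pre-culture can be told apart from the strain effect in cellulose. The design text places that pre-culture before sophorose, and its part in the sophorose values was not tested. Without QM9414 cellulose replicate 1 the comparison called 23 genes (11 higher, 12 lower), and the strain effect in cellulose 11 (9 higher, 2 lower).

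Genes of the same processes were also counted outside the 98. Of 49 others (checkpoint, replication factor, ribonucleotide reductase, spindle and similar descriptions), 4 were called for the strain effect in cellulose (2 higher, 2 lower; 18.6% of all genes) and 1 in sophorose (lower; 17.2% of all genes), where DESeq2 called 2. In glucose both tools called 0 (2.60% of all genes by edgeR; 12 of the 49 had an unadjusted p under 0.05). A checkpoint kinase 2-like gene (ID 121061), of the family that halts the cycle after DNA damage, had 696, 610 and 614 CPM in Δxyr1 cellulose and 183 to 280 elsewhere (1.46 ± 0.13, adjusted p = 4.21e-07). A putative meiotic segregation gene (ID 63007) ran opposite, at 3.91, 4.40 and 4.32 CPM in Δxyr1 cellulose against 13.6, 13.6 and 19.9 in QM9414 cellulose (-1.89 ± 0.17). The ribonucleotide reductase large subunit (ID 74047), which makes DNA precursors, was lower in Δxyr1 cellulose than in Δxyr1 glucose (-1.30 ± 0.17), and a further reductase gene (ID 74235) was called higher in the comparison of strain effects (1.38 ± 0.28, adjusted p = 0.00121).

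Damaged words in the deposited descriptions hid 30 further genes from the search terms. They were chiefly DNA polymerases, the GINS subunits, which act with the MCM helicase, and the anaphase-promoting complex. These genes were found after the files were read. Of the 30, 7 are also among the 49 above, including the GINS subunit PSF1, and are counted in both lists. For strain, 2 of the 30 were called in cellulose (both higher), where 18.6% of all genes were, and 2 in sophorose (both lower), where 17.2% were. The GINS subunit PSF1 (ID 21653) had 93.4, 89.1 and 85.1 CPM in Δxyr1 cellulose and 10.5 to 18.5 CPM in every other library (2.30 ± 0.13, adjusted p = 2.47e-09). A gene described as DNA polymerase B (ID 80159) had 58.4 to 102 CPM in glucose, 230 to 275 in QM9414 cellulose, 472 to 553 in QM9414 sophorose, 615 to 707 in Δxyr1 cellulose and 304 to 417 in Δxyr1 sophorose.

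The rule left out 4 genes whose descriptions hold the word kinase. Among them, a CDK8-like kinase (ID 105449) had 151, 20 and 97 raw counts in Δxyr1 cellulose against 1, 3 and 1 in QM9414 cellulose (adjusted p = 6.72e-05). It had 8, 8 and 6 in Δxyr1 sophorose against 47, 43 and 77 in QM9414 sophorose (adjusted p = 0.00647), and 0 or 1 in glucose. CDK8 is the known partner of C-type cyclins in yeast and animals. The regulatory subunit of cyclin-dependent kinase (ID 68110) had 51.7, 82.7 and 119 CPM in Δxyr1 glucose against 34.8 and 42.3 in QM9414 glucose (1.13 ± 0.29, adjusted p = 0.0331).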

How the data were processed

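Total RNA of mycelia was sequenced by the authors as paired-end Illumina libraries, aligned to the T. reesei 2.0 assembly with TopHat2 2.0.4, keeping unique alignments, and counted per gene with HTSeq 0.6.0. The deposited values used here are raw counts; whether counting used strand is not given in the sources used here. The deposited table also holds the authors' normalized counts, fold changes and p-values, which were not used. Descriptions and protein IDs were taken from the deposited table, and symbols, lengths and gene order from RefSeq (assembly v2.0); all 98 genes matched and 5 had a symbol. Descriptions are damaged in places, and the rule was applied to the deposited words.

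Counts of 17 libraries were fitted in edgeR 4.0.16 (R 4.3.3) with TMM factors, 1 coefficient for each of 6 groups and the quasi-likelihood test, after keeping the 8506 genes with at least 10 counts in 2 libraries. CPM use TMM-scaled library sizes. Genes were called at an adjusted p of 0.05 and a log2 fold change of 1 or beyond. Totals of 7014100 to 29056712 counts leave genes of a few CPM with low counts in each library. Groups came from the deposited labels; QM9414 glucose replicate 2 was not analysed here. The protocols differ on a glycerol pre-culture, which the methods place before cellulose for Δxyr1 and the design text before sophorose.

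The members and lists were chosen with earlier results of these data known. Genes named are all histones and replication proteins, cyclins that were called, up to 10 called members per comparison with the largest change and no overlap between groups, and the 5 most abundant members called nowhere; others were added after their values were seen. Alternatives were DESeq2 1.42.0, RLE and upper-quartile factors, no and stricter filters, compared groups alone, a replicate block and single libraries left out; library totals without scaling factors were added after the data were seen. The code was tested on simulated data.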

Additional observations from a re-analysis of the deposited data

Results flagged for a closer look

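The strain effect differed between sophorose and cellulose in 24 of the 98 genes (the effect in sophorose minus that in cellulose, log2, with the adjusted p of the edgeR interaction test). These groups differ in time points, and may differ in pre-culture, as well as in the inducer.

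Relatively higher in the mutant in cellulose were the F-box genes ID 121427 (-2.57, 0.000119), ID 119607 (-2.30, 6.7e-07), ID 122823 (-1.65, 4.13e-05), ID 120912 (-1.56, 0.0437), ID 79708 (-1.34, 0.000164) and ID 55279 (-1.29, 0.00343). The cyclins ID 5196 (-2.48, 5.08e-07) and ID 52520 (-1.41, 0.00271) stood on the same side. So did the histone enzymes ID 120339 (-1.75, 3.61e-05), ID 32755 (-1.67, 0.00347), ID 110943 (-1.47, 0.00631), ID 111216 (-1.36, 0.000763) and ID 79414 (-1.33, 2.24e-05).

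Relatively higher in the mutant in sophorose were the histones hh2a (1.56, 0.000317), hh4.1 (1.52, 0.00398), hh4.2 (1.48, 0.00283), hh2b (1.43, 0.000238), hh3 (1.15, 0.00093) and the H3 gene ID 57870 (1.10, 0.00117). With them were the F-box genes ID 103463 (1.68, 0.0187), ID 104741 (1.30, 0.00195) and ID 60887 (1.07, 0.000305), the SET-domain gene ID 122500 (1.41, 0.000579) and the histone-fold factor ID 108421 (1.10, 0.0092). The call of ID 120912 was lost in 9 of 20 alternatives.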

How the results depend on the processing

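The number of members called stayed within 1.5 times the reported one under DESeq2, RLE and upper-quartile factors, both other filters, compared groups alone and the replicate block, except for the strain effect in glucose, where 1 gene was called: DESeq2 and the replicate block each gave 2 and compared groups alone 0. With no scaling factors, added after the data were seen, that count was 12, the count for cellulose against glucose in Δxyr1 52, and for sophorose against glucose in Δxyr1 40; the cause was not tested. On that scale ID 22314, a cell division gene, reversed for the strain effect in glucose (-0.14, from 0.46).

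Leaving out 1 library at a time gave 8 to 11 calls for the strain effect in cellulose, 5 to 15 in sophorose, 0 to 5 in glucose, 11 to 16 for cellulose against glucose in QM9414, 15 to 19 for sophorose against glucose, 4 to 6 for sophorose against cellulose, 20 to 26, 17 to 29 and 14 to 19 for these in Δxyr1, and 22 to 25 for the comparison of strain effects. The 5 in sophorose came without Δxyr1 sophorose replicate 2. In glucose the count was 5 without Δxyr1 glucose replicate 1 and 0 without any other of the 5 libraries. Of 209 results for single genes, 101 kept their direction and call under all alternatives run and 1 reversed under any.

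Replicate numbers are not stated to mark shared cultures. Same-numbered residuals correlated at -0.202 to 0.127 for the strain effect in cellulose, 0.0922 to 0.336 in sophorose and 0.187 to 0.354 in glucose (2 pairs). Pairs with different numbers ran from -0.197 to 0.271 in cellulose, -0.349 to -0.0151 in sophorose and -0.373 to 0.373 in glucose. With 2 QM9414 glucose libraries the residuals mirror each other, so each glucose value has a counterpart of opposite sign. The replicate block changed no other count by over 1.5 times. Depth limits genes with few counts, such as ID 32755.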
